A study of Mus musculus with 17 samples.

Results

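The guanylate-binding proteins read here are Gbp2, Gbp2b, Gbp3 and Gbp7, 4 mouse genes each read by 1 probe set. They were chosen as the probe sets whose single platform gene symbol is one of these 4 names, out of 12488 probe sets on the array and 8252 genes with a probe set of 1 symbol. All 4 passed the filter on low values. Expression was measured with oligonucleotide arrays in total RNA of mouse macrophages grown from bone marrow. The donor cells were fetal liver cells, of SOCS3-/- embryos in the groups called KO and of SOCS3+/+ embryos in those called WT. They reconstituted recipient mice, and macrophages were grown from the donor-derived marrow. The KO groups are unstimulated cells, cells after 100 min of IL-6 and cells after 400 min of IL-6 (n = 3 arrays each). The WT groups are unstimulated cells (n = 2), cells after 100 min and cells after 400 min of IL-6 (n = 3 each), with IL-6 at 10 ng/ml in both genotypes. All groups therefore share the transplantation of fetal liver cells into a recipient and the culture of macrophages. The labels give neither the age, sex nor strain of the mice, nor the deleted part of the gene. They number the replicates 1 to 3 and do not tell if a number stands for a culture, a mouse or a donor. The spread that the p-values rest on is the one between these arrays, and part of it may be technical.

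Guanylate-binding proteins are large GTPases of the dynamin superfamily and are among the genes most strongly induced by interferon-gamma in macrophages. They assemble on the membranes of vacuoles that hold intracellular parasites and bacteria, and on bacteria free in the cytosol, and take part in destroying these compartments and in activating inflammasomes. IL-6 signals through the receptor subunit gp130 and the JAK kinases, mainly to STAT3, and SOCS3 is a feedback inhibitor that binds gp130 and the JAKs. Interferon signals reach promoters through GAS elements, bound by STAT dimers, and through interferon-stimulated response elements (ISREs), bound by interferon regulatory factors and by the ISGF3 complex. The comparison asks how these genes answered IL-6 over time with and without SOCS3.

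In the RefSeq annotation of assembly GRCm38.p6 the 4 genes lie next to each other on chromosome 3 in the order Gbp7, Gbp3, Gbp2b and Gbp2, all on the plus strand. Their promoters are printed here because the genes had like patterns over the arrays, so that the letters they share can be seen. Each runs from 250 bases before to 50 bases after the annotated start, 5′ to 3′ on the plus strand, from RefSeq, GRCm38.p6. Capitals mark the ISRE core, which is GAAA, any 2 bases and GAAA, here found on the opposite strand. The windows are chr3:142530086-142530385 for Gbp7, chr3:142559794-142560093 for Gbp3, chr3:142594597-142594896 for Gbp2b and chr3:142620413-142620712 for Gbp2.
Gbp7: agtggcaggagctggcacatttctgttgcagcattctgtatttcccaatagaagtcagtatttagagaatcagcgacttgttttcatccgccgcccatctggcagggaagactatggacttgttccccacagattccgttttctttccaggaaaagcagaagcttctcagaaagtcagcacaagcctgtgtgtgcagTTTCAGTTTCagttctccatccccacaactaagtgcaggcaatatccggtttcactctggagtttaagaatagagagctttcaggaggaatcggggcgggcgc
Gbp3: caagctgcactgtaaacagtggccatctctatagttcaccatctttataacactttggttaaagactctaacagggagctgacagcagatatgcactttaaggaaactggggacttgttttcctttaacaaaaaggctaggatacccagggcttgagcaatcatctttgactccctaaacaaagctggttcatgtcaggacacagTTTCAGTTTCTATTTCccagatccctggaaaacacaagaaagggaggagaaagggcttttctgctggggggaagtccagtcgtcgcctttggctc
Gbp2b: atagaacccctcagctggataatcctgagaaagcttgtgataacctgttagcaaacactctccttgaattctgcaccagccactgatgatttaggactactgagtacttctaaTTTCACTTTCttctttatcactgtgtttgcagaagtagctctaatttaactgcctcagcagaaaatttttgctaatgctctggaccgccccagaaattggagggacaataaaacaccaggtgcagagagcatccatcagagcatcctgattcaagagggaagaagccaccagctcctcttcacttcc
Gbp2: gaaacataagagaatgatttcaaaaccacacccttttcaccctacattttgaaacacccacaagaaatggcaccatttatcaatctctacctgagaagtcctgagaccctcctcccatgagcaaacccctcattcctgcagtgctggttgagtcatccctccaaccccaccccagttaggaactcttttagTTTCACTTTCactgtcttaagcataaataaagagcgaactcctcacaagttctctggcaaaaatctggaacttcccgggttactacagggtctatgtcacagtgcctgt

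All 4 genes had the ISRE core in a promoter window, against 3.44% of the 32851 promoter windows of all genes, each 300 bases long. In Gbp2 the match TTTCACTTTC lay at positions -59 to -50 from the start, and in Gbp2b the same letters lay at -137 to -128. In Gbp7 the match was TTTCAGTTTC at -53 to -44. Gbp3 had TTTCAGTTTC at -45 to -36 and a second match, TTTCTATTTC, that overlapped it at -39 to -30. Gbp3 has a second annotated window, chr3:142560106-142560405, in which the ISRE core was not found. The GAS motif, TTCNNNGAA, which reads the same on both strands, was found in Gbp7 only, with TTCCAGGAA at -106 to -98 and TTCTCAGAA at -87 to -79. Of all promoter windows 8.3% held it. The STAT3-type form with 4 bases between the arms was found in the second window of Gbp3 only (6.95% of all windows). The form with 2 bases between the arms, TTCNNGAA, was found in 0 of the 4 genes (8.52% of all windows), as was the GAAA repeat with a gap of 3 bases (2.75%). An NF-kappaB core, GGG, any 5 bases and CC on either strand, was found in 3 of the 4 genes and in 50.8% of all windows. The TATA box letters TATAAA were found in 1 of the 4, Gbp3, and in 13.6% of all windows. A match of letters is a description and not a binding site, and no binding was measured.

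**Figure D1:**
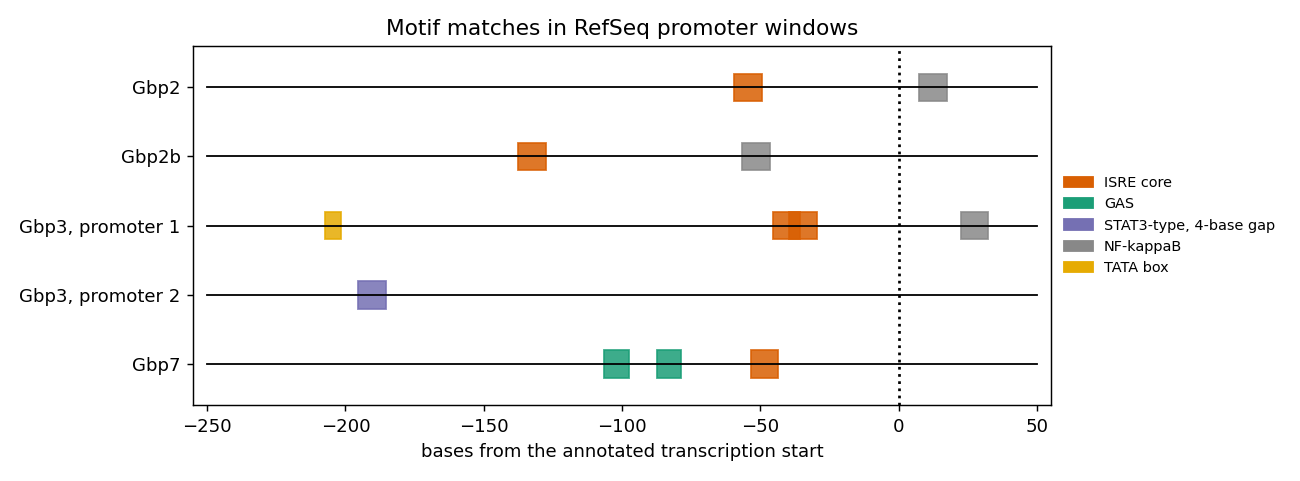
Motif matches in the promoter windows of Gbp7, Gbp3 (both annotated windows), Gbp2b and Gbp2, plotted by distance from the annotated start in bases. The ISRE core is present in all 4 genes, at -59 to -50 in Gbp2, and the GAS motif in Gbp7 only.

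Several limits of the whole series touch the values that follow. The median deposited intensity of an array was 164.25 to 216.95, and the mean after trimming 2% at both ends was 500.3 to 500.4, so the arrays had been scaled before deposit. Socs3, on the brighter of its probe sets, lay at 45.2 to 883.7 on the stimulated KO arrays and at 429.5 to 2647.6 on the stimulated WT arrays. The highest KO value, 883.7, is on the library labelled KO 400 min replicate 3, and the lowest stimulated WT value, 429.5, on WT 100 min replicate 3. The other Socs3 probe set read 78.2 to 784.3 on stimulated KO and 479.7 to 1333.0 on stimulated WT arrays, and whether either lies in the deleted part is not known. The X-inactivation RNA Xist was 220.5 to 1010.0 on the KO arrays and 10.7 to 214.3 on the WT arrays, and Y-linked Eif2s3y was 6.2 to 121.5 on KO and 252.2 to 783.3 on WT arrays. Every KO array was thus above every WT array in Xist and below every WT array in Eif2s3y. Genotype and a difference in the sex of the cells cannot be told apart in any KO against WT comparison below. Of the 5 replicate 3 arrays, 4 scored 26.61 to 58.08 on the first principal component (12.7% of the variance). The 12 arrays of replicates 1 and 2 scored at most 2.27. KO 400 min replicate 3 scored 0.89, within the range of those 12 but above the other KO 400 min arrays, at -30.31 and -29.93. Each comparison of the members below is therefore also given for replicates 1 and 2 alone where that changes a call. Of 10 macrophage markers, among them Adgre1, Csf1r, Cd68 and Lyz2, all 10 were tested. None was at or below the floor of 22.01, the 10th percentile of the normalized values, on any array.

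In KO cells the mean intensity of the 4 genes was 9.87 to 18.0 times the unstimulated mean after 100 min of IL-6 and 7.52 to 24.9 times after 400 min. In WT cells it was 4.27 to 6.29 times the unstimulated mean at 100 min. At 400 min it was 1.02 to 1.08 times in WT cells for Gbp2b, Gbp3 and Gbp7 and 2.09 times for Gbp2. The differences that passed limma's test were the rises of Gbp2, Gbp3 and Gbp7 in KO cells at both times and the higher level of these 3 genes in KO than in WT cells at 400 min. No member passed the test in WT cells over all arrays, and the difference between the genotypes' responses passed only when replicate 3 arrays, or WT 100 min replicate 3 alone, were left out or under other models of the spread. The values of each gene follow.

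Gbp2 is a prenylated member that in mice is recruited to the vacuole of Toxoplasma gondii and limits the parasite. Its deposited intensity in KO cells was 384.5, 325.4 and 346.5 unstimulated, 5132.7, 4708.1 and 1666.9 at 100 min and 8241.5, 8035.0 and 10047.6 at 400 min. These and all values by array are in the order of replicates 1, 2 and 3. In WT cells it was 407.1 and 349.8 unstimulated, 2214.2, 1858.9 and 772.3 at 100 min and 883.5, 936.2 and 549.4 at 400 min. The 3 KO arrays at 400 min were above all other arrays, and those of KO and WT overlapped at 100 min through the KO array of replicate 3. WT arrays at 400 min overlapped those at 100 min but lay above both unstimulated WT arrays. Group means in KO cells were 352.1 ± 29.95 unstimulated, 3835.9 ± 1890.4 at 100 min and 8774.7 ± 1107.2 at 400 min, and in WT cells 378.5 ± 40.52 unstimulated, 1615.1 ± 751.2 at 100 min and 789.7 ± 209.8 at 400 min (SD, n = 3, and n = 2 in unstimulated WT). From the highest mean down the order was KO at 400 min, KO at 100 min, WT at 100 min, WT at 400 min and then the unstimulated groups. Neighbours in this order overlapped, except both KO times, and WT at 400 min and the unstimulated cells.

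Gbp3 is recruited to parasite vacuoles in mouse cells as well. In KO cells its intensity was 225.4, 266.1 and 298.3 unstimulated, 3244.3, 3214.1 and 1338.2 at 100 min and 3507.8, 4308.9 and 2446.3 at 400 min. WT cells had 365.2 and 323.7 unstimulated, 2644.4, 1870.9 and 758.8 at 100 min and 404.1, 229.4 and 417.5 at 400 min. The KO arrays at 400 min lay above all WT arrays at 400 min, while the genotypes overlapped at 100 min. WT arrays at 400 min were below all WT arrays at 100 min and spanned both unstimulated WT values. Its group means were 263.3 ± 36.53, 2598.9 ± 1091.9 and 3421.0 ± 934.3 in KO cells at 0, 100 and 400 min, and 344.4 ± 29.34, 1758.0 ± 947.9 and 350.3 ± 104.9 in WT cells (SD, n as above). The order of the means was the one of Gbp2. Neighbours in it overlapped, except WT at 100 and 400 min, and the unstimulated groups of both genotypes.

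Gbp7 is a member that in mouse macrophages is tied to the delivery of autophagy and oxidase proteins to bacterial vacuoles. KO cells had 460.6, 360.9 and 363.0 unstimulated, 4916.7, 4652.8 and 2229.5 at 100 min and 3334.6, 3096.2 and 2480.0 at 400 min. WT cells had 444.0 and 424.3 unstimulated, 3647.8, 3746.7 and 792.5 at 100 min and 390.6, 441.3 and 578.8 at 400 min. It was the one member whose KO mean was lower at 400 than at 100 min, by a ratio of 0.755, and the arrays of these 2 times overlapped. Its means were 394.8 ± 56.97, 3933.0 ± 1481.2 and 2970.3 ± 441.0 in KO cells at 0, 100 and 400 min, and 434.1 ± 13.93, 2729.0 ± 1677.8 and 470.2 ± 97.38 in WT cells. The order of the means was that of Gbp2 with the KO times exchanged, and all neighbours overlapped except WT at 100 and 400 min.

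Gbp2b, formerly called Gbp1, is a prenylated member close to Gbp2. In KO cells its intensity was 142.1, 152.8 and 13.4 unstimulated, 2820.9, 2584.8 and 132.2 at 100 min and 3063.1, 3009.0 and 275.9 at 400 min. WT cells had 129.0 and 158.7 unstimulated, 1032.3, 993.4 and 196.1 at 100 min and 112.3, 219.7 and 125.0 at 400 min. On the replicate 3 arrays Gbp2b did not exceed 275.9 at any time in either genotype, whereas on those of replicates 1 and 2 it reached 3063.1 in KO and 1032.3 in WT cells. The unstimulated KO value of 13.4 lies below the floor of 22.01 set before log2 transformation, so log2 changes against that group understate the difference. The replicate 3 pattern differs from that of Gbp2, which had its highest value of all on the array labelled KO 400 min replicate 3. Its means were 102.8 ± 77.58, 1846.0 ± 1488.9 and 2116.0 ± 1593.8 in KO cells at 0, 100 and 400 min, and 143.8 ± 21.0, 740.6 ± 472.0 and 152.3 ± 58.69 in WT cells. The order was that of Gbp2, and every pair of neighbours overlapped.

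**Figure D2:**
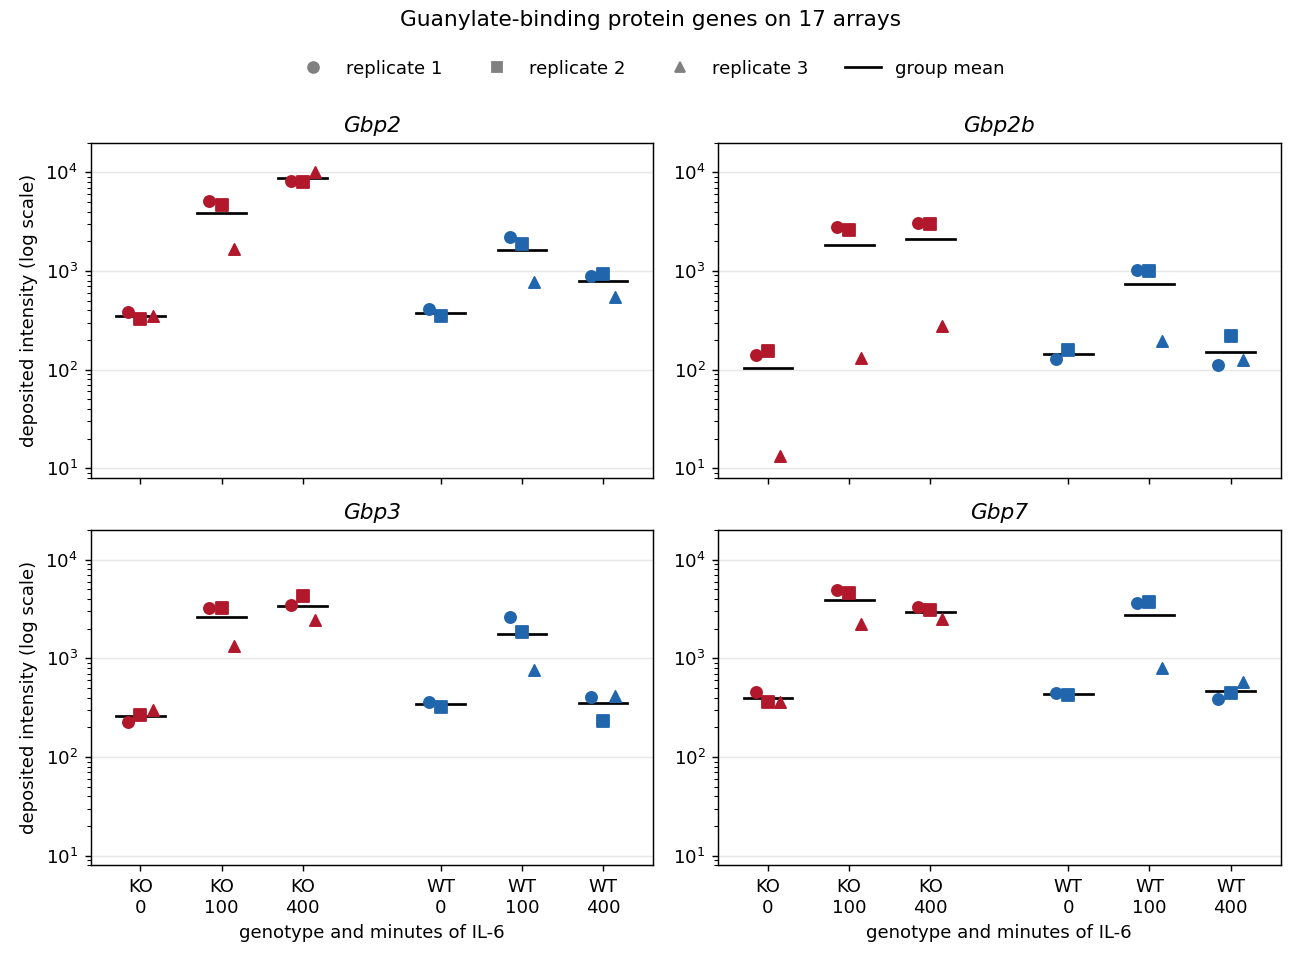
Deposited intensity (log scale) of Gbp2, Gbp2b, Gbp3 and Gbp7 on each of the 17 arrays, with KO left of WT and times from 0 to 400 min; each point is 1 array and its marker gives the replicate number. KO arrays at 400 min are at 8035.0 or more for Gbp2, and for Gbp2b the KO array of replicate 3 is the lowest of its group at each time. Black lines are group means.

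In KO cells after 100 min of IL-6, Gbp2, Gbp3 and Gbp7 rose. On the log2 scale of the normalized values Gbp2 rose by 3.31 (SE 0.44, adjusted p = 0.00305, limma), Gbp3 by 3.21 (SE 0.45, adjusted p = 0.00436) and Gbp7 by 3.27 (SE 0.48, adjusted p = 0.00533). Gbp2b was 3.71 higher (SE 1.21) and did not pass (adjusted p = 0.397). So 3 of 4 members were called higher, against 0.537% of all 9871 tested probe sets. The members' median was 3.29 and that of all tested probe sets -0.04. Taking replicates 1 and 2 alone, all 4 were called, with Gbp2b at 4.18 (SE 0.28, adjusted p = 0.000612), against 0.973% of all. With a term added for the replicate 3 arrays Gbp2b was called as well, at an unchanged 3.71 (adjusted p = 0.00847), where 0.851% of all were called higher. Fitting the arrays of these 2 groups by themselves ended the 3 calls (adjusted p = 0.0728 to 0.108). Calls of genes outside the members, such as Iigp1 and Il4ra below, ended in that fit too (adjusted p = 0.0687 and 0.0803). The summed intensity of the 5 dendritic cell markers was 1100.5 to 1261.0 at 100 min against 1004.4 to 1036.2 in unstimulated KO cells. That of the 8 fibroblast markers was 2105.6 to 2272.8 at 100 min against 2388.0 to 2788.2 unstimulated. The sums of the other 4 marker lists overlapped, and the part of the markers in the result was not tested.

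Both KO comparisons with unstimulated cells share the unstimulated KO arrays. After 400 min Gbp2 had risen by 4.68 in KO cells (SE 0.44, adjusted p = 0.000143, limma), Gbp3 by 3.69 (SE 0.45, adjusted p = 0.00128) and Gbp7 by 2.95 (SE 0.48, adjusted p = 0.00698). In order of p over all 9871 probe sets they ranked 4, 11 and 42. Gbp2b was 4.06 higher (SE 1.21, adjusted p = 0.137). Again 3 of 4 were called higher, where the share over all probe sets was 1.2%. All 4 were called with replicates 1 and 2 alone (1.52% of all), and Gbp2b was also called when the array labelled KO 400 min replicate 3 was left out (5.25, adjusted p = 0.0469). The term for the replicate 3 arrays also gave a call for Gbp2b (4.06, adjusted p = 0.00256), with 2.01% of all called higher. Without that array Gbp2 rose by 4.55 (adjusted p = 0.000841), Gbp3 by 3.88 (adjusted p = 0.00321) and Gbp7 by 3.04 (adjusted p = 0.0193). Gbp2, Gbp3 and Gbp7 kept their calls at both times whichever of the 17 arrays was left out.

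Sums of markers of some cell types also differed without overlap between KO cells at 400 min and unstimulated KO cells. B cell markers (6 read) summed to 2017.2 to 2351.7 at 400 min against 2412.7 to 5927.3 unstimulated, and macrophage markers (10 read) to 74427.8 to 74846.2 against 84933.6 to 94665.2. The brightest B cell markers were Ighm and Blnk, with medians over all arrays of 1910.2 and 1139.9, against 30.7 to 201.1 for the others. Dendritic cell markers (5 read) summed to 1186.8 to 1733.9 at 400 min against 1004.4 to 1036.2 unstimulated. The sums of T and NK cell, neutrophil and fibroblast markers overlapped. By limma 0 of the tested markers of any list were called at 100 or at 400 min, and their part in the members' rise was not tested.

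Between 100 and 400 min in KO cells 0 of 4 members were called by limma and 1 of 4, Gbp2, had an unadjusted p under 0.05. Gbp2 was 1.37 higher at 400 min (95% interval 0.43 to 2.32, adjusted p = 0.355), Gbp3 0.48 higher (adjusted p = 0.827) and Gbp7 -0.32 (adjusted p = 0.913). The Gbp2 difference was 2.69 within replicate 3, against 0.68 and 0.75 within replicates 1 and 2, and 0.72 with replicates 1 and 2 alone (adjusted p = 0.308). Over all probe sets 0% was called, and 891 had an unadjusted p under 0.05.

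In WT cells 0 of 4 members were called by limma at 100 min. All 4 were higher, Gbp7 by 2.34 (SE 0.54, adjusted p = 0.369), Gbp3 by 2.19 (SE 0.51, adjusted p = 0.369), Gbp2b by 2.12 (SE 1.35, adjusted p = 0.892) and Gbp2 by 1.98 (SE 0.49, adjusted p = 0.395). An unadjusted p under 0.05 was reached by 3 of 4, where 604 of 9871 probe sets reached it, and 0.0101% of all were called. The calls depended on the replicate 3 arrays. With replicates 1 and 2 alone all 4 members were called higher, with Gbp7 at 3.06 (SE 0.20, adjusted p = 0.00182) and Gbp2 at 2.42 (SE 0.22, adjusted p = 0.00521), where 0.172% of all probe sets were called higher. With the term for the replicate 3 arrays Gbp2b was at 3.00 (adjusted p = 0.26), and none of the 4 was called. Without the array WT 100 min replicate 3 only Gbp7 was called (3.06, adjusted p = 0.00763), where the share over all was 0.0405%. The B cell marker sum was 2320.4 to 5676.2 at 100 min against 6957.2 to 7789.4 in unstimulated WT cells, and that of the dendritic cell markers 746.1 to 982.4 against 1185.8 to 1574.4. The part of these markers was not tested.

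At 400 min in WT cells 0 of 4 members were called by limma against unstimulated cells, and 1 of 4, Gbp2, had an unadjusted p under 0.05. Gbp3 was at 0.02 (95% interval -1.08 to 1.11) and Gbp7 at 0.13 (95% interval -1.03 to 1.29). Gbp2 was at 1.08 (95% interval 0.02 to 2.14, adjusted p = 0.786) and Gbp2b at 0.12 (adjusted p = 0.999). Unstimulated WT has no replicate 3 array, and with a term for the replicate 3 arrays the value of Gbp2b was 1.00 (adjusted p = 0.794). Of all probe sets 0.0101% were called and 618 had an unadjusted p under 0.05.

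Set against 100 min in WT cells, Gbp7 was at -2.22 (SE 0.48, adjusted p = 0.259, limma), Gbp3 at -2.17 (SE 0.45, adjusted p = 0.196), Gbp2b at -2.0 (adjusted p = 0.854) and Gbp2 at -0.89 (adjusted p = 0.815) at 400 min. None was called, 2 of 4 had an unadjusted p under 0.05, and of all probe sets 0% were called and 622 had an unadjusted p under 0.05. With replicates 1 and 2 alone Gbp7 fell by 3.10 (SE 0.20, adjusted p = 0.00168), Gbp3 by 2.83 (SE 0.33, adjusted p = 0.0259) and Gbp2b by 2.70 (SE 0.28, adjusted p = 0.0174), which makes 3 of 4, where 0.132% of all were called lower. Gbp2 was not called there (-1.09, adjusted p = 0.153). Leaving out WT 100 min replicate 3 alone gave calls for Gbp3 (-2.67, adjusted p = 0.0366) and Gbp7 (-2.94, adjusted p = 0.00728), with 0.132% of all called lower. The macrophage marker sum was 83654.3 to 87807.1 at 400 min against 93987.8 to 98590.9 at 100 min in WT cells, and its part was not tested.

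The ratio of the mean intensity at 400 min to that at 100 min gives the contrast between the genotypes without a test. For Gbp2 it was 2.29 in KO and 0.489 in WT cells. By replicate the Gbp2 ratio was 1.61, 1.71 and 6.03 in KO and 0.399, 0.504 and 0.711 in WT cells. For Gbp2b it was 1.15 in KO and 0.206 in WT cells, and for Gbp3 1.32 and 0.199. Gbp7 had 0.755 in KO and 0.172 in WT cells. All 4 ratios were higher in KO cells. The difference between the genotypes in the change from 100 to 400 min was 2.65 for Gbp3 (adjusted p = 0.681), 2.34 for Gbp2b (adjusted p = 0.999), 2.27 for Gbp2 (adjusted p = 0.988) and 1.90 for Gbp7 (adjusted p = 0.999). By limma 0 of 4 were called and 3 of 4 had an unadjusted p under 0.05, where 0.0203% of all probe sets were called over all arrays, and 409 had an unadjusted p under 0.05. With replicates 1 and 2 alone 0 of 4 members and 0.0101% of all were called in it.

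**Figure D3:**
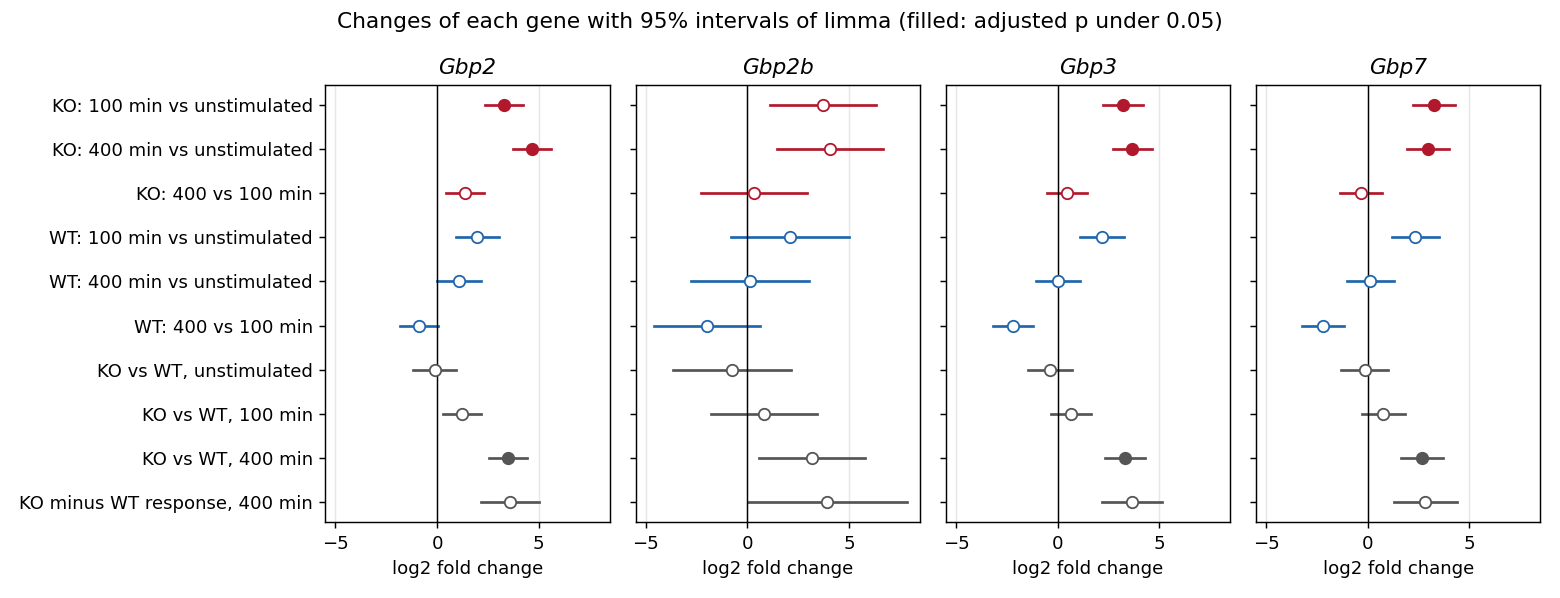
Log2 fold changes of Gbp2, Gbp2b, Gbp3 and Gbp7 (points, with 95% intervals of limma as lines) in KO cells, in WT cells and between the genotypes; filled points have an adjusted p under 0.05. The KO values at 400 min against unstimulated cells lie between 2.95 and 4.68, and the WT values between 0.02 and 1.08.

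Between the genotypes, the members did not differ detectably in unstimulated cells. The KO minus WT difference was -0.10 for Gbp2, -0.15 for Gbp7, -0.36 for Gbp3 and -0.76 for Gbp2b. By limma 0 of 4 were called, and 0 of 4 were under an unadjusted p of 0.05. Over all probe sets 0% were called there and 591 had an unadjusted p under 0.05. At 100 min all 4 were higher in KO cells, by 1.23 for Gbp2 (adjusted p = 0.773), 0.83 for Gbp2b, 0.77 for Gbp7 and 0.66 for Gbp3 (adjusted p = 0.999 each), and 0 of 4 were called, where 0.0405% of all were. Only Gbp2 had an unadjusted p under 0.05 among the 4. A fit left out the array WT 100 min replicate 3 and kept KO 100 min replicate 3. In it these differences were 0.78 for Gbp2, 0.02 for Gbp2b, 0.05 for Gbp7 and 0.16 for Gbp3 (adjusted p = 0.883 to 0.999). Replicates 1 and 2 alone gave 1.31 for Gbp2, 1.41 for Gbp2b, 0.42 for Gbp7 and 0.60 for Gbp3 (adjusted p = 0.0675 to 0.682). At 400 min Gbp2 was 3.5 higher in KO than in WT cells (SE 0.44, adjusted p = 0.00521), Gbp3 3.31 higher (SE 0.45, adjusted p = 0.00855) and Gbp7 2.67 higher (SE 0.48, adjusted p = 0.0343). Gbp2b was 3.18 higher (SE 1.21, adjusted p = 0.453). This is 3 of 4 called higher, against 0.314% of all, and Gbp2, Gbp3 and Gbp7 ranked 3, 5 and 23 in order of p. With replicates 1 and 2 alone all 4 were called (0.76% of all), Gbp2b at 4.26 (SE 0.28, adjusted p = 0.000766). With the term for the replicate 3 arrays all 4 were called too, where 0.628% of all were, Gbp2b at 3.18 (adjusted p = 0.0295). Gbp2 and Gbp3 kept the call whichever array was left out. Gbp7 lost it in 9 of 17 such fits, those without any 1 of the arrays of unstimulated KO, KO at 400 min or WT at 400 min, with values of 2.56 to 2.83 and an adjusted p of 0.0504 to 0.131. Without the array labelled KO 400 min replicate 3 Gbp2 was 3.36 higher (adjusted p = 0.0146), Gbp3 3.5 higher (adjusted p = 0.0146) and Gbp7 2.76 higher (adjusted p = 0.0509). Fitting the arrays of these groups by themselves ended all 3 calls (adjusted p = 0.0539 to 0.066). It also ended calls of genes outside the members, such as Iigp1 and Irf1 below (adjusted p = 0.112 and 0.0967).

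In the same cells the B cell markers differed in the sum: the summed intensity of the 6 read was 2017.2 to 2351.7 in KO and 3448.7 to 4842.9 in WT cells at 400 min. Ighm and Blnk are the brightest markers in this sum, as given above. The sum of the 10 macrophage markers was 74427.8 to 74846.2 in KO and 83654.3 to 87807.1 in WT cells, and of the 12 T and NK cell markers, 7 of them too dim to be tested, 694.0 to 926.9 in KO and 809.1 to 1073.7 in WT cells. Sums of 5 dendritic cell markers were 1186.8 to 1733.9 in KO and 869.5 to 1296.1 in WT cells, of 10 neutrophil markers 1333.7 to 1637.9 in KO and 901.5 to 1925.5 in WT cells, and of 8 fibroblast markers 2055.7 to 2688.5 in KO and 2140.0 to 2366.3 in WT cells. Before IL-6 some sums were already lower in KO than in WT cells, without overlap. B cell markers summed to 2412.7 to 5927.3 in KO and 6957.2 to 7789.4 in WT cells. Macrophage markers summed to 84933.6 to 94665.2 and 95934.5 to 97593.9, neutrophil markers to 985.7 to 1420.9 and 1629.1 to 1832.2. Dendritic cell markers summed to 1004.4 to 1036.2 and 1185.8 to 1574.4, while T and NK cell and fibroblast sums overlapped. By limma 0 of the tested markers were called between the genotypes at 400 min. Some markers were dim: Cd3g and Ncr1 were at or below the floor of 22.01 on 8 of 17 arrays each, and Ctsg and Zbtb46 on 6. Ctsg and Ngp of the neutrophil list, Zbtb46 of the dendritic cell list and Dcn of the fibroblast list were too dim to be tested. Their part in the result was not tested, and fewer cells of a type and less RNA per cell cannot be told apart in such bulk samples.

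The direct test of the 400 min response, KO minus WT, gave 3.6 for Gbp2 (SE 0.66, unadjusted p = 9.52e-05, adjusted p = 0.181), 3.67 for Gbp3 (SE 0.68, adjusted p = 0.181), 2.82 for Gbp7 (SE 0.72, adjusted p = 0.436) and 3.94 for Gbp2b (SE 1.82, adjusted p = 0.899). By limma 0 of 4 were called, though all 4 had an unadjusted p under 0.05. In order of p Gbp2, Gbp3, Gbp7 and Gbp2b ranked 3, 4, 38 and 511 of 9871. Over all probe sets 0% was called, and 531 had an unadjusted p under 0.05. At 100 min the difference in response was 1.33 for Gbp2, 1.60 for Gbp2b, 1.02 for Gbp3 and 0.92 for Gbp7 (adjusted p = 1 each), with 0% of all called, 361 of all under an unadjusted p of 0.05, and 0 of 4 members under it. With the term for the replicate 3 arrays, the group that lacks such an array being unstimulated WT, the difference of Gbp2b was 3.06 at 400 min (adjusted p = 0.48) and 0.72 at 100 min (adjusted p = 0.998). Without WT 100 min replicate 3 the differences at 100 min were 0.89 for Gbp2, 0.79 for Gbp2b, 0.52 for Gbp3 and 0.20 for Gbp7 (adjusted p = 1 each). That fit kept KO 100 min replicate 3. Replicates 1 and 2 alone gave 1.41 for Gbp2, 1.26 for Gbp2b, 1.07 for Gbp3 and 0.53 for Gbp7 (adjusted p = 0.425 to 0.984).

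At 400 min the outcome of this test depended on the replicate 3 arrays. With replicates 1 and 2 alone all 4 members were called, Gbp2 at 3.22 (SE 0.31, adjusted p = 0.014), Gbp2b at 4.11 (SE 0.40, adjusted p = 0.014), Gbp3 at 4.13 (SE 0.47, adjusted p = 0.0262) and Gbp7 at 3.03 (SE 0.29, adjusted p = 0.014), where 0.111% of all probe sets were called higher. Without WT 100 min replicate 3 alone, an array that does not enter the contrast itself, Gbp2, Gbp3 and Gbp7 were called (adjusted p = 0.0397), with 0.0709% of all. Fitting the 4 groups of the contrast by themselves also called 3 of 4, where 0.0507% of all were called higher.

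Within replicate 3, where each group but unstimulated WT has 1 array and no test is possible, KO at 400 min minus unstimulated KO was 4.94 for Gbp2, 3.5 for Gbp2b, 3.10 for Gbp3 and 2.86 for Gbp7 on the log2 scale. KO minus WT at 400 min within this replicate was 4.27, 1.00, 2.60 and 2.18 for Gbp2, Gbp2b, Gbp3 and Gbp7. At 100 min these were 1.08, -0.32, 0.76 and 1.47. All 4 directions at 400 min were therefore as in replicates 1 and 2, while Gbp2b at 100 min had the opposite sign. The change of WT cells between 100 and 400 min within it was -0.51 for Gbp2, -0.59 for Gbp2b, -0.86 for Gbp3 and -0.46 for Gbp7, where replicates 1 and 2 gave -1.09 for Gbp2 and -2.70 to -3.10 for the other 3.

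Over the 17 arrays the normalized log2 intensities of the members were correlated. Pearson's r was 0.968 for Gbp3 and Gbp7, 0.926 for Gbp2 and Gbp3, and 0.883 for Gbp2 and Gbp7. For Gbp2b it was 0.801 with Gbp2, 0.846 with Gbp3 and 0.853 with Gbp7. On the 12 arrays of replicates 1 and 2 the last 3 were 0.957, 0.965 and 0.961. The arrays share stimulation and genotype, so these values describe the shared pattern of groups. The probe sequences are not used here, and whether probes of one member also bind RNA of another was not tested. A separate probe set assigned to both Gbp8 and Gbp4 was not counted as a member and was at 20.6 to 479.5 on all arrays, with no call in any comparison. Against unstimulated KO cells it was at 0.58 after 100 min (SE 0.90) and at -0.02 after 400 min (SE 0.90) on the log2 scale.

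**Figure D4:**
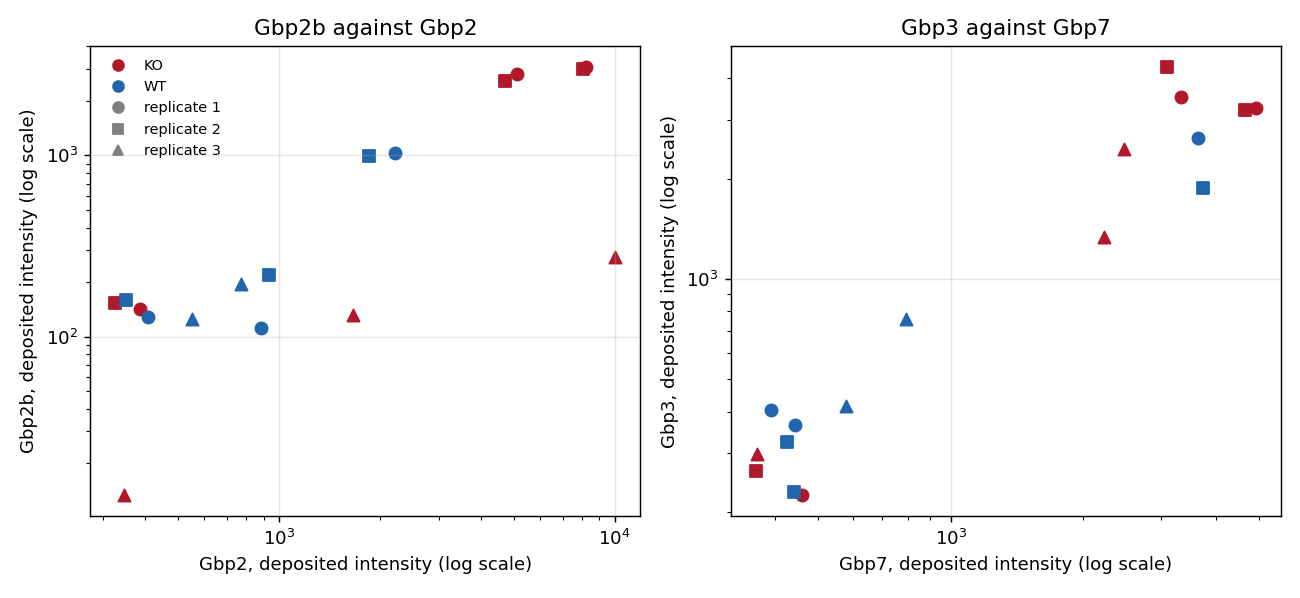
Deposited intensity on log axes, 1 point per array (n = 17), of Gbp2b against Gbp2 on the left and of Gbp3 against Gbp7 on the right, with KO in red, WT in blue and markers for the replicate number. Gbp3 and Gbp7 follow each other (r = 0.968 on normalized log2 values), and the KO replicate 3 arrays are the lowest of their groups for Gbp2b at 13.4, 132.2 and 275.9.

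By the rule of highest correlation with the members' mean over the 17 arrays, the genes most like the members were Ifi47 (r = 0.967), Selp (0.965), Bzw2 (0.950), Nampt (0.945), Ccl12 (0.937) and Trim30a (0.925). Ifi47, an interferon-inducible GTPase of another family, averaged 327.6 ± 73.14 in unstimulated KO, 2948.3 ± 1259.4 at 100 min and 3746.6 ± 1120.3 at 400 min in KO cells. In WT cells Ifi47 averaged 624.3 ± 77.78 unstimulated, 2218.8 ± 1396.4 at 100 min and 451.2 ± 205.8 at 400 min. Selp, the adhesion molecule P-selectin, averaged 537.7 ± 293.7 at 100 min and 363.1 ± 65.2 at 400 min in KO cells, against 186.5 ± 101.1 and 40.23 ± 17.5 in WT cells (SD, n = 3). Ccl12, a monocyte chemoattractant, averaged 870.5 ± 398.6 and 1101.7 ± 184.3 in KO cells at these times, against 181.3 ± 111.6 and 88.97 ± 78.46 in WT cells. Nampt, an enzyme of NAD synthesis, averaged 2435.1 ± 618.5 and 2128.1 ± 375.5 in KO cells, against 1588.6 ± 437.2 and 728.5 ± 59.22 in WT cells. Bzw2 averaged 903.7 ± 329.0 and 1405.7 ± 491.0 in KO cells, against 698.4 ± 204.4 and 359.5 ± 44.82 in WT cells. Trim30a, an interferon-inducible gene, averaged 1195.6 ± 270.1 and 1164.4 ± 274.7 in KO cells, against 948.1 ± 456.9 and 403.7 ± 84.82 in WT cells. In all 6 the mean at 400 min was higher in KO than in WT cells. The 6 were picked on these same arrays by likeness to the members, so this direction is no independent result.

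The 10 genes read nearest to the cluster, on both sides of it on chromosome 3, were not members. Of these 9 were tested, and in 0 of the 12 comparisons was any of them called by limma. At 400 min in KO cells their log2 changes were -2.10 to 0.64, against 2.95 to 4.68 for the 4 members.

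Among 17 other interferon-inducible GTPases, 7 were read and tested: Ifi47, Igtp, Iigp1, Irgm1, Irgm2, Mx1 and Mx2. Of all tested probe sets 0.537% were called higher in KO cells at 100 min, 1.2% at 400 min and 0.314% in KO over WT cells at 400 min. These shares stand beside the counts of the lists below as well. In KO cells 5 of 7 (all but the Mx genes) rose at 100 min (median 2.74, against -0.04 over all probe sets), with Iigp1 at 4.28 (SE 0.60, adjusted p = 0.00436, limma) and Irgm2 at 2.74 (SE 0.32, adjusted p = 0.00169). At 400 min Iigp1, Ifi47, Igtp and Irgm2 rose, 4 of 7 (median 1.93), led by Iigp1 at 5.16 (SE 0.60, adjusted p = 0.000862) and Ifi47 at 3.52 (SE 0.57, adjusted p = 0.00647). KO exceeded WT cells at 400 min for 4 of 7, Iigp1 (4.98, adjusted p = 0.00521), Ifi47 (3.11, adjusted p = 0.0343), Irgm2 (1.82, adjusted p = 0.0301) and Irgm1 (1.76, adjusted p = 0.0346). Iigp1 kept the call in all fits that left out 1 array, but fitting only the groups compared ended all 4 calls (Iigp1 adjusted p = 0.112) and all 5 at 100 min in KO cells (Iigp1 adjusted p = 0.0687). Ifi47 lost it in 9 of 17 (without any WT 400 min, any unstimulated KO, KO 100 min replicate 2 or KO 400 min replicates 1 or 2), Irgm2 in 6 of 17 (without any KO or WT array at 400 min) and Irgm1 in 9 of 17 (without any array at 400 min of either genotype, unstimulated KO replicates 1 or 2 or KO 100 min replicate 1). At 100 min Ifi47 lost its call in 5 fits (without any unstimulated KO array or KO 100 min replicates 1 or 2) and Igtp in 3 (without KO 100 min replicates 1 or 2 or unstimulated KO replicate 3). Igtp lost its call at 400 min in 5 fits (without any KO 400 min array or unstimulated KO replicates 2 or 3). Mx1 and Mx2, which are induced mainly by type I interferon, were not called in KO cells at 100 or 400 min or between KO and WT cells at 400 min. In WT cells 0 of 7 passed, with medians of 1.5 at 100 min, -0.53 at 400 min and -1.90 between these times.

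**Figure D5:**
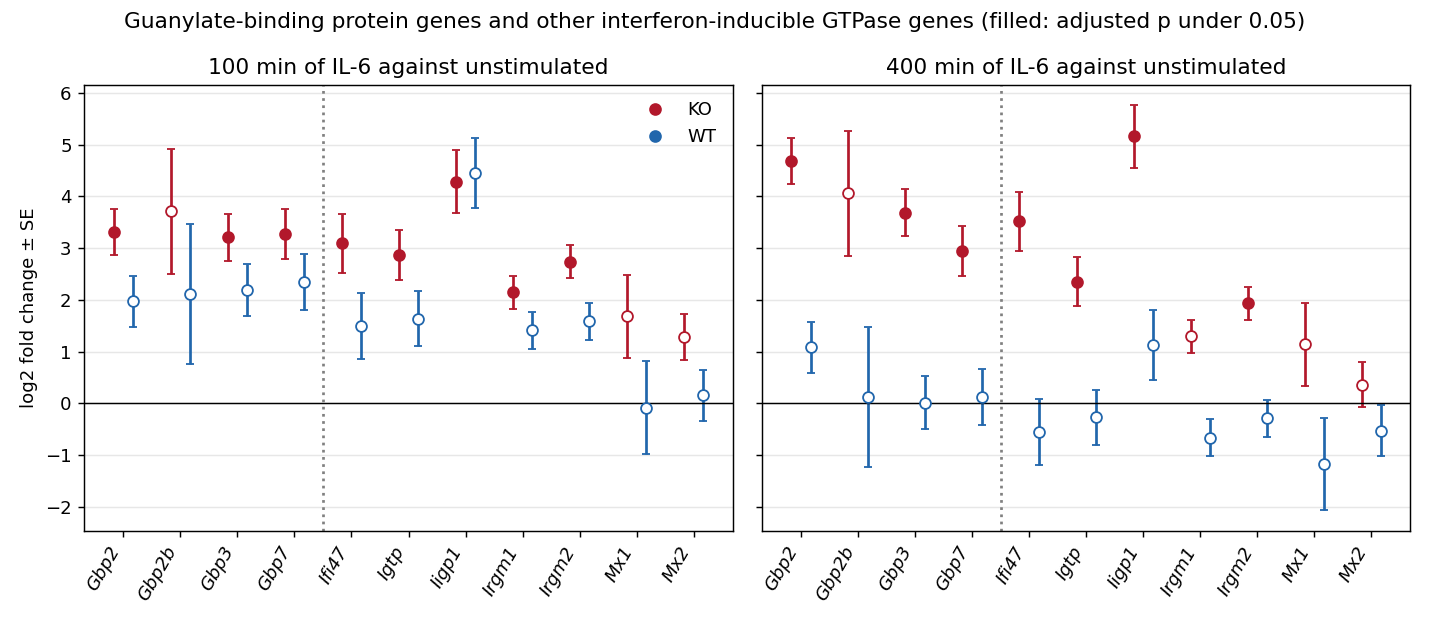
Log2 fold changes ± SE of the 4 guanylate-binding proteins (left of the dotted line) and the 7 other interferon-inducible GTPases, with KO left of WT, at 100 and 400 min against unstimulated cells; filled points have an adjusted p under 0.05. Iigp1 reaches 5.16 and Gbp2 4.68 in KO cells at 400 min.

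Of 17 tested genes of interferon signalling, Irf1, an interferon regulatory factor that drives guanylate-binding protein genes, rose in KO cells. It was 2.63 higher at 100 min (SE 0.35, adjusted p = 0.00326) and 2.67 higher at 400 min (SE 0.35, adjusted p = 0.00198), and kept these calls in all 17 fits that left out an array. Fitting only the groups compared ended its call at 100 min (adjusted p = 0.158) and not that at 400 min (adjusted p = 0.0203). Irf1 at 400 min was 2.15 higher in KO than in WT cells (adjusted p = 0.0201), and so was Socs1, a feedback inhibitor of interferon-gamma signalling (2.58, SE 0.46, adjusted p = 0.0336), the 2 called of 17. Irf1 lost that call in 4 fits (without KO 400 min replicate 1 or 2, or WT 400 min replicate 2 or 3), and Socs1 in 9 (without any array of these groups or of unstimulated KO). Both were lost when only the groups compared were fitted (adjusted p = 0.0967 for Irf1 and 0.0678 for Socs1). In WT cells Irf1 was at 0.35 at 100 min (adjusted p = 0.942) and 0.02 at 400 min (adjusted p = 0.999). The list medians were 0.28, 0.25 and 0.32 in these 3 KO comparisons. Ifng, the gene of interferon-gamma, was at 4.3 to 54.1 on KO and 8.0 to 97.6 on WT arrays and too dim to be tested, and Ifnb1 was at 30.2 to 158.5 on KO and 14.5 to 234.3 on WT arrays.

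Of 22 other tested genes of the interferon-gamma response, 2 rose in KO cells at 100 min (Cxcl10 and Tap1, median 0.48), 6 at 400 min (Casp1, Cxcl10, Fcgr1, Psmb9, Psmb10 and Tap1, median 0.58), and 3 were higher in KO than in WT cells at 400 min (median 0.54). Cxcl10, a chemokine, rose by 4.0 at 100 min (SE 0.46, adjusted p = 0.00169) and 3.08 at 400 min (SE 0.46, adjusted p = 0.00362). Tap1, a peptide transporter subunit of antigen presentation, was 1.57 higher in KO than in WT cells at 400 min (SE 0.22, adjusted p = 0.00855), a call that held in all 17 fits without 1 array and was lost when only the groups compared were fitted (adjusted p = 0.112). That fit also ended the calls of Cxcl10 and Tap1 at 100 min (adjusted p = 0.082 and 0.194), but not that of Cxcl10 at 400 min (adjusted p = 0.0446). Casp4 (2.70, adjusted p = 0.0494) and Cxcl10 (2.34, adjusted p = 0.0492) were called in the same comparison but lost it without most single arrays, Casp4 in 12 and Cxcl10 in 11 of 17 fits. Among the genes called at 400 min in KO cells, Fcgr1, Psmb10 and Casp1 lost their calls in 5, 5 and 6 fits, all without an unstimulated or 400 min KO array.

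Of 20 tested genes of the IL-6 and STAT3 response, 7 rose in KO cells at 100 min (median 1.70), and 9 rose and 1, Fos, fell at 400 min (median 1.82; Fos -2.10, adjusted p = 0.0357). Il4ra, the alpha chain of the IL-4 receptor, rose by 3.37 at 100 min (SE 0.35, adjusted p = 0.00105) and by 4.35 at 400 min (SE 0.35, adjusted p = 6.59e-05). Fitting only the groups compared ended its call at 100 min (adjusted p = 0.0803). Il4ra and Gadd45g kept their calls at both times, and Fcgr2b at 400 min, whichever array was left out. Fcgr2b at 100 min and Arg1 at 400 min each lost the call in 3 of 17 such fits, and Myc at 100 min in 11. With replicates 1 and 2 alone Myc was not called at 100 min (2.36, adjusted p = 0.199). Between KO and WT cells at 400 min 0 of 20 were called by limma, with a median of 0.50, and Il4ra was 1.16 higher (SE 0.35, adjusted p = 0.267). With replicates 1 and 2 alone 4 were called, Arg1 (4.20, adjusted p = 0.00962), Fcgr2b (2.74, adjusted p = 0.00659) and Gadd45g (1.85, adjusted p = 0.0191) higher and Socs3, the targeted gene, lower (-5.16, adjusted p = 0.00143). The term for the replicate 3 arrays called Fcgr2b (2.41, adjusted p = 0.0103) and Pim1 (1.05, adjusted p = 0.0378) higher. An intensity trend called the same 2 higher and Socs3 lower. In WT cells 1 of 20, Il4ra, was called at 100 min and 1 at 400 min, and the median between 100 and 400 min was 0.05, against -2.09 for the members. The lists were described by counts and medians alone, and whether the members differ from them was not tested.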

How the data were processed

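Expression was read on 17 arrays, grouped by their titles. The deposited table holds 1 linear intensity per probe set and array; from the values, arrays had been scaled to a common trimmed mean, and what the authors ran to obtain them (software, background correction, scaling method) was not given in the sources used here. Gene symbols come from the platform's annotation: 10855 probe sets have 1 symbol, 396 several and 1237 none. Array medians differed by 0.401 on the log2 scale, above a limit of 0.3, so values were quantile normalized, floored at the 10th percentile (22.01) and log2 transformed. The 66 control probe sets were left out, and the 9871 others that exceeded the 40th percentile of an array on 2 or more arrays were tested. Testing used limma 3.58.1 (R 4.3.3), with 1 mean per group over all arrays (prior degrees of freedom 2.6, residual 11) and 12 comparisons. It is two-sided, with Benjamini-Hochberg adjustment over all tested probe sets in each comparison, and a call is an adjusted p under 0.05. The scripts were tested on simulated data. The number of arrays limits the precision, and signal over background could not be read, since the table has no detection calls.

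The members and gene lists were chosen with earlier results of these data known. Named genes are the 4 members, Socs3, the 6 genes most correlated with the mean of the scaled members, and in each of 4 lists up to 4 called genes of the largest absolute change in KO at 100 min, KO at 400 min, KO against WT at 400 min and the response difference at 400 min. Mx1, Mx2, Psmb9, Fos and Pim1, and values of list genes in other comparisons, were chosen after their values were seen. Alternatives were no quantile normalization, a pseudocount of 16, a floor at the 2nd percentile, no filter, only the groups compared, an intensity trend, a replicate block, a replicate 3 term, replicates 1 and 2 alone, and leaving out each array.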

Additional observations from a re-analysis of the deposited data

How the results depend on the processing

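Of the members' fold changes under the alternatives, 1179 kept their direction and side of the threshold, 34 became calls, 15 lost one and 20 turned direction, all of the last uncalled. Members called in WT at 100 min numbered 4 with replicates 1 and 2 alone and 0 to 1 with 1 array left out. In WT at 400 against 100 min they numbered 3 with replicates 1 and 2 alone, 2 with an intensity trend and 0 to 2 with 1 array left out. In the response difference at 400 min they numbered 4 with replicates 1 and 2 alone, 3 with only the groups compared, 2 with an intensity trend and 0 to 3 with 1 array left out. Fitting only the groups compared, with fewer arrays behind the spread, gave 0 calls of members in KO at 100 min and in KO against WT at 400 min. Shares of all probe sets called under the intensity trend, and under that fit in these comparisons, are not given here. That fit also gave 0 calls of other GTPases and of interferon signalling genes in both, 0, 3 and 0 calls of interferon-gamma response genes in KO at 100 min, KO at 400 min and KO against WT, and, for IL-6 and STAT3 genes, 0 rises in KO at 100 min and 4 rises and 0 falls at 400 min. With a floor at the 2nd percentile or no filter, 1 interferon-gamma gene each was called in KO against WT. For interferon signalling, replicates 1 and 2 alone gave 2 calls in KO at 100 min and 2 at 400 min, and a replicate 3 term gave 2 at 100 min. For IL-6 and STAT3 genes, falls in KO at 400 min were 2 with the trend, the replicate 3 term or replicates 1 and 2 alone, and 2 at 100 min in the last. In KO against WT at 400 min the higher calls of that list were 2, 2 and 3 under these 3 alternatives, and the lower calls 1 with the trend and 1 with replicates 1 and 2 alone. The cause of these differences was not tested. With 1 array left out, counts ran 3 to 6 for GTPases in KO at 100 min and 1 to 5 in KO against WT at 400 min; 1 to 2, 1 to 2 and 0 to 2 for interferon signalling in KO at 100 min, KO at 400 min and KO against WT; and 1 to 2, 2 to 7 and 1 to 3 for interferon-gamma genes. For IL-6 and STAT3 genes they ran 3 to 7 and 5 to 9 rises and, at 400 min, 0 to 1 falls, with 0 to 1 in both directions in KO against WT.

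Deviations from the group means correlated at 0.100 to 0.236 between replicate 3 arrays, at -0.016 to 0.110 between those of replicate 1 and at -0.012 to 0.089 between those of replicate 2 (40 pairs in all), against -0.160 to 0.118 over 80 pairs of different numbers. So the replicate 3 arrays deviated together and those of the other numbers did not all do so. Of 17 arrays 11 correlated best with their own number, and the numbers were not taken as pairs. The replicate block gave 4 member calls in KO at 100 min and 4 at 400 min, Gbp2b among them (adjusted p = 0.0154 and 0.00505), and 3 in KO against WT (Gbp2b adjusted p = 0.0505), 2 interferon signalling calls in KO at 100 min, and 2 falls and 1 higher call of IL-6 and STAT3 genes in KO at 400 min and in KO against WT. The share of all probe sets called under the block is not given here, so these counts cannot be set against it. In unstimulated KO against WT the block and the replicate 3 term each gave 0.11 for Gbp2, 0.12 for Gbp2b and 0.058 for Gbp7. Replicates 1 and 2 alone gave 0.15 for Gbp2b there, and for WT at 400 min -0.15 for Gbp3 and -0.032 for Gbp7, where no quantile normalization gave -0.0236 for Gbp3. For Gbp2b the block gave 1.00 in WT at 400 min against unstimulated and 3.06 in the response difference at 400 min. With 1 array left out, unstimulated KO against WT ran -0.25 to 0.043 for Gbp2 and -1.25 to 0.15 for Gbp2b, WT at 400 min against unstimulated -0.15 to 0.29 for Gbp2b, -0.15 to 0.32 for Gbp3 and -0.032 to 0.24 for Gbp7, and KO at 400 against 100 min -1.04 to 1.54 for Gbp2b.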
